A study of Mus musculus with 13 samples.

Results

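The state of the thymic stroma at the low point of thymus cellularity after sublethal total body irradiation (TBI) was described from 7 of the 13 bulk RNA-seq libraries of the series. These are the 3 libraries of day 4 after TBI and the 4 libraries of steady state, chosen by the names of their count columns. All mice were wild-type C57BL/6 mice of 2 months. The steady-state libraries are labelled untreated, whereas the column names give PBS (phosphate-buffered saline) and a day: day 1 (replicate 2), day 4 (replicate 2) and day 7 (replicates 1 and 2). Each library came from digested thymus that was depleted of CD45+ cells and sorted for CD45- cells, so that it holds all stromal cell types together. In such bulk libraries, fewer cells of a type and less RNA per cell cannot be told apart. Levels are CPM, that is counts scaled to a fixed library size, after TMM scaling. Levels per library are given in the order PBS day 1, PBS day 4, PBS day 7 replicate 1 and PBS day 7 replicate 2, and then day 4 replicates 1, 2 and 3.

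The thymic stroma consists of thymic epithelial cells (TECs), fibroblasts (FBs), endothelial cells (ECs), mural, mesothelial and glial cells. Cortical TECs (cTECs) commit progenitors to the T lineage through the Notch ligand Dll4 and select thymocytes with peptides cut by Psmb11 and Prss16, and medullary TECs (mTECs) display tissue antigens under Aire. Erythroid cells carry little or no CD45 as they mature, so that their RNA, like that of residual thymocytes, is given first and kept apart from the stromal genes.

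Total counts ran from 22501215 to 48419232 at steady state and from 15721866 to 52056896 at day 4, and the smallest library was day 4 replicate 1. That library stood apart from both others of its group. Of 11334 genes with a mean of at least 5 CPM, 1695 were at least 2 times as high in replicate 1 as in each of the other day 4 libraries, against 6 genes for replicate 2 and 18 for replicate 3. Ptprc, the gene of CD45, had 119, 24.0, 105 and 38.3 CPM at steady state and 4.07, 4.37 and 4.54 CPM at day 4. Each column name ends in a tag, and the tags were grouped into 3 kinds by how they begin, not by being identical. Day 4 replicate 1 has the same kind of tag as PBS day 1 and PBS day 7 replicate 1, and replicates 2 and 3 the same kind as PBS day 4, which allowed differences within each of these kinds (hereafter within the tags). PBS day 7 replicate 2 has the third kind and enters neither. What the tags stand for is not given in the sources used here.

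Of 19984 genes tested, 10 were higher at day 4 than at steady state (0.05% of those tested) and 48 were lower (0.24%) at an adjusted p of 0.05 or less in edgeR. The median log2 fold change of all genes was −0.13. In every day 4 library, 1286 genes (6.44%) were above all controls and 1643 (8.22%) below them. Of the 48 lower genes, 13 were in a list of 26 erythroid genes and 5 in a list of 31 thymocyte genes. Another 7 were in neither list but followed thymocyte RNA, which was taken as a level at least 2 log2 units higher in day 7 replicate 2 than in day 7 replicate 1. The other 23 lower genes and all 10 higher genes had neither mark. The counts depended on the test. DESeq2 called 267 genes higher (1.34%) and 378 lower (1.89%), and edgeR fitted to the 7 libraries alone called 30 higher (0.16%) and 116 lower (0.617%).

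**Figure D1:**
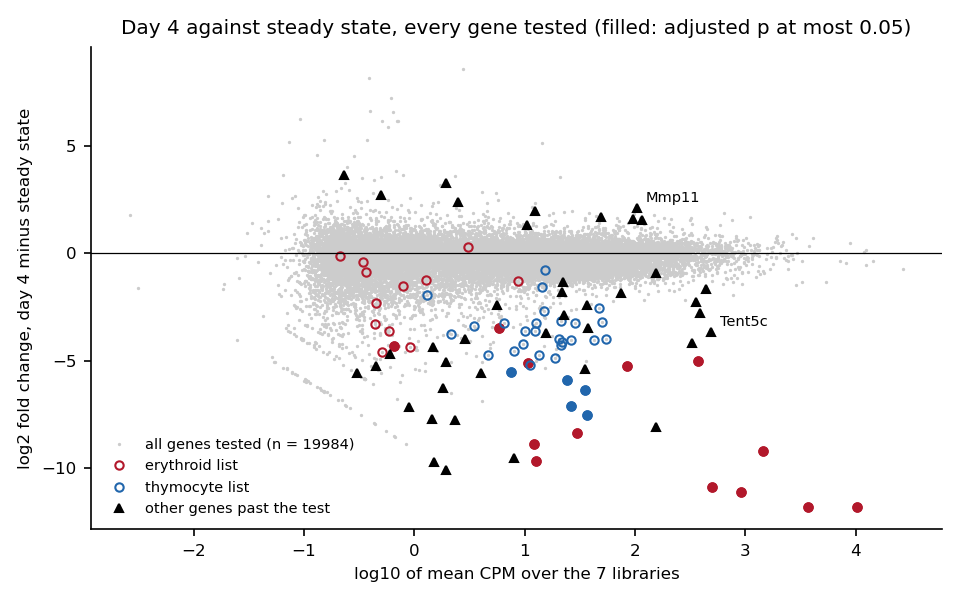
Log2 fold change of day 4 against steady state (vertical axis) for each of the 19984 genes tested, against the log10 of its mean CPM over the 7 libraries (horizontal axis). Red and blue mark the erythroid and thymocyte lists, filled where the adjusted p was 0.05 or less, and black triangles the other genes past the test. The lowest points are globin genes, down to −11.84, and 10 triangles lie above 0.

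Erythroid RNA was close to absent at day 4. The summed level of the erythroid list was 38059, 21896, 34419 and 28049 CPM at steady state and 43.7, 47.0 and 51.0 CPM at day 4, with no overlap. Its share of all counts went from 1.81% to 4.27% in the controls to at most 0.00586%. Of its 25 genes tested, 13 fell and none rose, and the median log2 fold change was −4.36. In every day 4 library 19 of them were below all controls, against 8.22% of all genes. Within the tags the median was −3.21 (day 4 replicates 2 and 3 against PBS day 4) and −5.17 (replicate 1 against its 2 controls), in that order here and hereafter.

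Hba-a1, an alpha-globin gene (ENSMUSG00000069919, chromosome 11, 32283511 to 32284465, plus strand, GRCm38), had 8458, 4299, 7474 and 5934 CPM at steady state and 0.645, 2.55 and 1.94 CPM at day 4. Every day 4 level was far below every control (log2 fold change −11.84, SE 0.901, adjusted p = 3.32e-05). Hbb-bs, a beta-globin gene, went from 18123 ± 3582 CPM (SD, n = 4) to 4.90 ± 2.21 CPM (SD, n = 3), a change of similar size (log2 fold change −11.83, SE 0.888, adjusted p = 3.32e-05). Hba-a2 and Hbb-bt fell by 11.16 and 10.91 on the log2 scale. Each is a near copy of a gene just named, so that the split of reads within each pair is uncertain.

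Genes of heme synthesis, iron supply and the red cell membrane fell as well. Alas2, the erythroid enzyme of the first step of heme synthesis (ENSMUSG00000025270, chromosome X, 150547375 to 150570638, plus strand), was measured at 3299, 1510, 3471 and 1803 CPM at steady state and 5.74, 3.44 and 3.46 CPM at day 4. The groups were far apart (log2 fold change −9.24, SE 0.705, adjusted p = 3.32e-05). Slc25a37, the mitochondrial iron importer of erythroid cells, went from 147 ± 60.7 to 3.88 ± 0.890 CPM (log2 fold change −5.26, adjusted p = 8.28e-05). Bpgm, which makes the 2,3-bisphosphoglycerate that lowers the oxygen affinity of hemoglobin, went from 635 ± 220 to 19.3 ± 3.21 CPM (log2 fold change −5.04, adjusted p = 0.000633). Epb42, of the membrane skeleton, and Kel, a blood group antigen, fell by 3.49 and 4.34 on the log2 scale. The regulators Gata1 and Klf1 did not pass, with log2 fold changes of −0.10 and −0.42 (adjusted p = 0.973 and 0.867). Nor did other members of the list, such as Ank1, Sptb and Ermap, so that this does not set the regulators apart. Over the alternative settings, the log2 fold changes ran from −0.55 to 8.21 for Gata1 and from −0.94 to 7.83 for Klf1.

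The promoters of the whole erythroid list, of which 13 of 25 tested genes fell, were searched for AGATAA, the letters of a GATA site, on either strand. RefSeq (GRCm38.p6) gave a window of 300 bases around the start site for 18 of the 26 genes, and 8 of the windows (44.4%) held the letters, against 11.2% of all 32851 windows. A match describes the window and is not a known site. Alas2 (chrX:150547167-150547466, plus strand) and Epb42 (chr2:121036828-121037127, minus strand) are shown as members that fell and hold 1 match each, in capitals as its reverse complement.
Alas2: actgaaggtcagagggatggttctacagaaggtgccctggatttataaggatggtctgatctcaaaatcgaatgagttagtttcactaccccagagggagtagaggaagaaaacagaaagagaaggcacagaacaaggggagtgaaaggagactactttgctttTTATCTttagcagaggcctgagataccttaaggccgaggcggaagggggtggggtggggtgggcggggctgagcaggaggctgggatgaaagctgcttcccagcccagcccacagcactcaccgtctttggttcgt
Epb42: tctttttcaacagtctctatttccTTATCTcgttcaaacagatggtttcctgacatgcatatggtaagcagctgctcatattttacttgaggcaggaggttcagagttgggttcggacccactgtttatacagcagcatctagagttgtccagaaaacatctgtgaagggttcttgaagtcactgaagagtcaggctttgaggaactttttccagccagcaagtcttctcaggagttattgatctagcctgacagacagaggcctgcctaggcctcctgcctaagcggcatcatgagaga

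Among the 23 lower genes outside the lists, several are known from maturing red cells, which was recognised after their values were seen. Tent5c, a poly(A) polymerase, fell from 817 ± 332 to 64.5 ± 12.2 CPM (log2 fold change −3.66, adjusted p = 0.00309), and Mkrn1, a ubiquitin ligase, from 608 ± 182 to 89.0 ± 27.5 CPM (log2 fold change −2.77, adjusted p = 0.00487). Car2, a carbonic anhydrase of red cells, Ube2o, a ubiquitin ligase of reticulocytes, and Fech, the last enzyme of heme synthesis, fell by 3.46, 2.88 and 2.26 on the log2 scale (adjusted p = 0.00343, 0.0174 and 0.0214). Apol11b, Fam220a and Diaph3 fell by 3.69, 2.43 and 2.42 (adjusted p = 0.00318, 0.00487 and 0.0331). F930017D23Rik and Hbq1b, a theta-globin gene with a near copy in Hbq1a, had 0 counts in all day 4 libraries. Against a floor of 3 counts over the group, they were at least 144-fold and 112-fold lower. Gm10371 had 8.83 to 21.3 CPM at steady state and 2 counts in all at day 4.

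**Figure D2:**
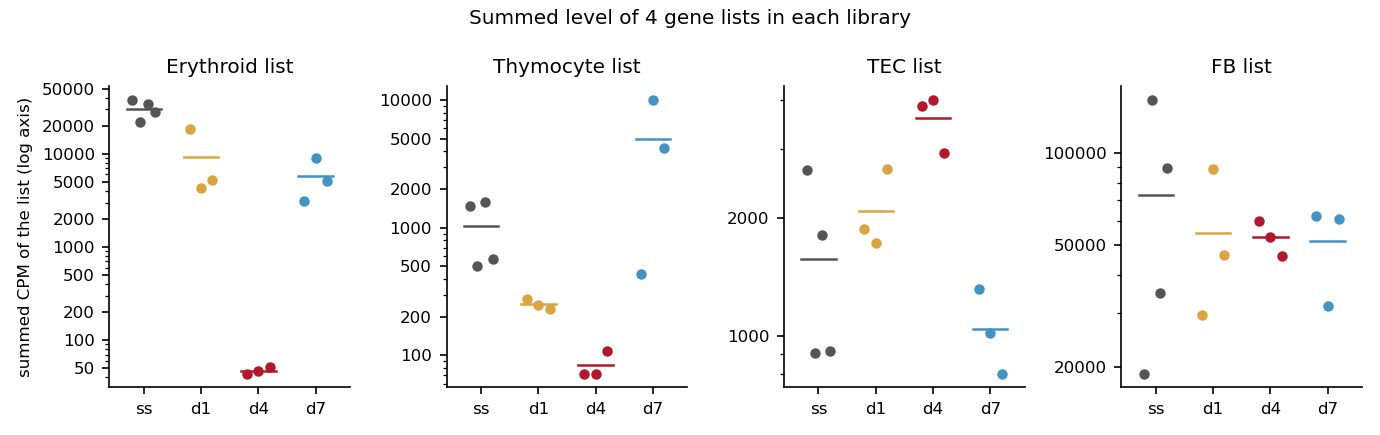
Summed CPM of the erythroid, thymocyte, TEC and FB lists in each of the 13 libraries (points, log axes), with group means as bars, at steady state (ss, n = 4) and on days 1, 4 and 7 (d1, d4 and d7, n = 3 each). The erythroid list lies at 43.7 to 51.0 CPM on day 4 against 21896 to 38059 CPM at steady state, and the TEC list at 2940 to 4018 against 901 to 2659 CPM. Krt5 and Krt18 make up most of the TEC sum at day 4.

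Thymocyte RNA was also lower. The summed level of the thymocyte list was 1476, 498, 1586 and 571 CPM at steady state and 71.9, 71.9 and 109 CPM at day 4. All 31 genes had a negative log2 fold change (median −3.99) and 5 fell. In every day 4 library 28 were below all controls, against 8.22% of all genes. PBS day 1 and PBS day 7 replicate 1 held more thymocyte RNA than the other controls, and within the tags the median was −2.66 and −4.74. DESeq2 called 28 of the 31 lower, and the fit to the 7 libraries alone 21, against 1.89% and 0.617% of all genes. Without day 4 replicate 1, 2 or 3, the 5 calls became 2, 0 and 1, whereas the 13 erythroid calls became 11, 11 and 10.

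The genes that fell were the co-receptors Cd8b1, Cd8a and Cd4, the recombinase Rag1 and the receptor modulator Cd5. Cd8b1 had 80.9, 35.1, 102 and 38.8 CPM at steady state and 0.0645, 0.263 and 0.574 CPM at day 4. The highest day 4 level was far below the lowest control (log2 fold change −7.54, SE 1.02, adjusted p = 0.00487). Rag1 had 28.5 to 130 CPM at steady state and 0.316 to 1.15 CPM at day 4 (log2 fold change −6.39, SE 1.02, adjusted p = 0.0174). Cd8a, Cd4 and Cd5 fell by 7.11, 5.89 and 5.54 on the log2 scale (adjusted p = 0.00487, 0.0276 and 0.0319). The most abundant members lay below all controls without passing. Tcf7, a transcription factor of early T cells, had 46.8 to 154 CPM and then 4.69 to 7.09 CPM (adjusted p = 0.0755). Lck, the kinase of the T cell receptor, had 39.2 to 123 CPM and then 7.17 to 11.6 CPM (adjusted p = 0.132), and Coro1a, an actin regulator of leukocytes, had 34.7 to 108 CPM and then 10.8 to 16.2 CPM (adjusted p = 0.203). Ptprc had a log2 fold change of −4.05 (adjusted p = 0.0899). Of the 7 lower genes that followed thymocyte RNA, Ccr9, the chemokine receptor of thymocytes, fell by 5.39 (adjusted p = 0.0183). Epb41 and Hbq1a of the same 7 are red cell genes, and 10 of the 25 erythroid genes carried the mark too, so that it does not separate the lineages.

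All 22 genes of the mitosis list followed thymocyte RNA and had negative log2 fold changes (median −1.84), and none passed in edgeR. In every day 4 library 16 of them were below all controls, against 8.22% of all genes. Ube2c, a ubiquitin enzyme of mitotic exit, had 25.9, 27.9, 24.2 and 17.2 CPM and then 3.16, 2.86 and 3.11 CPM (log2 fold change −2.97, SE 0.601, adjusted p = 0.0644). Top2a, a topoisomerase of dividing cells, had 14.8 to 40.0 CPM and then 4.36 to 7.62 CPM (adjusted p = 0.257). DESeq2 called 7 of the 22 lower and the fit to the 7 libraries 4, against 1.89% and 0.617% of all genes. The part of thymocytes in this difference was not tested. The DNA replication list had a median of −0.33, and its most abundant members Rrm1 and Mcm6 overlapped between the groups (adjusted p = 0.798 and 0.468).

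No gene of the lists of other blood cells or of neighbouring tissue passed in edgeR. Cd209d, outside these lists, did pass (log2 fold change −5.60, adjusted p = 0.0188). It had 0.373 to 0.775 CPM at steady state and 1 count in all at day 4. Of the 7 dendritic cell genes, 4 were below all controls, against 8.22% of all genes. Siglech, of plasmacytoid dendritic cells, had 1.58 to 5.53 CPM and then 0 to 0.0926 CPM (adjusted p = 0.0869). DESeq2 called Siglech, Cd209a and Flt3 lower (adjusted p = 2.58e-05, 0.000407 and 0.0331), and the fit to the 7 libraries alone called Siglech and Cd209a. The macrophage list (median −0.59) was led by Laptm5 with 50.7 to 214 CPM and then 38.1 to 61.1 CPM and Lyz2 with 17.6 to 113 CPM and then 25.8 to 45.5 CPM, both overlapping. The neutrophil list (median −0.18) was led by Ltf with 36.1 to 186 CPM and then 114 to 289 CPM, and the B cell and megakaryocyte lists summed to at most 6.00 and 14.1 CPM at day 4. All 8 adipocyte genes had positive log2 fold changes (median 1.61), with sums of 77.9, 722, 44.6 and 86.6 CPM in the controls and 686, 896 and 443 CPM at day 4, so that 1 control was inside the day 4 range. Of these genes, 2 were above all controls, against 6.44% of all genes, and DESeq2 called Retn higher (adjusted p = 0.000202). Pth, of the parathyroid, had 122, 148, 18.1 and 2.91 CPM and then 126, 105 and 518 CPM, and the thyroid and skeletal muscle lists summed to at most 2.50 and 17.0 CPM at steady state.

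With erythroid and thymocyte RNA set apart, 10 genes rose. Mmp11, a matrix metalloproteinase (ENSMUSG00000000901, chromosome 10, 75923222 to 75936496, minus strand), was measured at 41.0, 61.4, 31.4 and 39.1 CPM at steady state and 205, 180 and 172 CPM at day 4. All day 4 levels were above the highest control (log2 fold change 2.1, SE 0.391, adjusted p = 0.0438). Psat1, an enzyme of serine synthesis (ENSMUSG00000024640, chromosome 19, 15904678 to 15947337, minus strand), stood at 76.5, 73.7, 60.4 and 45.1 CPM and then 201, 207 and 150 CPM (log2 fold change 1.54, SE 0.266, adjusted p = 0.0276). Cirbp, the cold-inducible RNA-binding protein (ENSMUSG00000045193, chromosome 10, 80165985 to 80172786, plus strand), stood at 37.6, 74.0, 46.3 and 43.7 CPM and then 154, 154 and 157 CPM (log2 fold change 1.62, SE 0.266, adjusted p = 0.0189). Neither gene overlapped between the groups.

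Dcxr, a carbonyl and sugar reductase, rose from 24.9 ± 6.90 to 81.2 ± 3.25 CPM (log2 fold change 1.70, adjusted p = 0.0164). Kirrel3, a cell adhesion protein, rose from 5.49 ± 1.96 to 21.9 ± 2.89 CPM (log2 fold change 1.99, adjusted p = 0.0345). Fetub, a secreted protease inhibitor, rose from 6.45 ± 1.18 to 16.1 ± 4.12 CPM (log2 fold change 1.32, adjusted p = 0.038). These genes had no overlap either. Plcd4, a phospholipase C, was chosen after its values were seen and rose from 0.871 ± 0.266 to 4.68 ± 0.745 CPM (log2 fold change 2.42, adjusted p = 0.00776). The other 3, D630023F18Rik, A930001C03Rik and Ccdc190, likewise seen afterwards, were at most 4.74 CPM at day 4. Within both tags all 10 were higher at day 4, by 0.71 to 5.01 log2 units. With the kind of tag as covariate, 2 of the 10 passed (Dcxr and Kirrel3), with the replicate block 1 (Plcd4) and with a score of thymocyte RNA as covariate none. The thymocyte sums do not overlap between the groups, so that this score is partly bound to the comparison itself. Side by side, the means on days 1 and 7 were 52.8 ± 37.9 and 62.9 ± 12.2 CPM for Mmp11, 63.6 ± 20.7 and 89.9 ± 8.94 CPM for Cirbp, and 55.0 ± 13.7 and 29.1 ± 9.22 CPM for Dcxr (SD, n = 3 each). Each call depended on the libraries. Without day 4 replicate 1, 4 of the 10 passed (Plcd4, D630023F18Rik, Dcxr and Fetub), without replicate 2 none, and without replicate 3 only 1 (Plcd4).

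**Figure D3:**
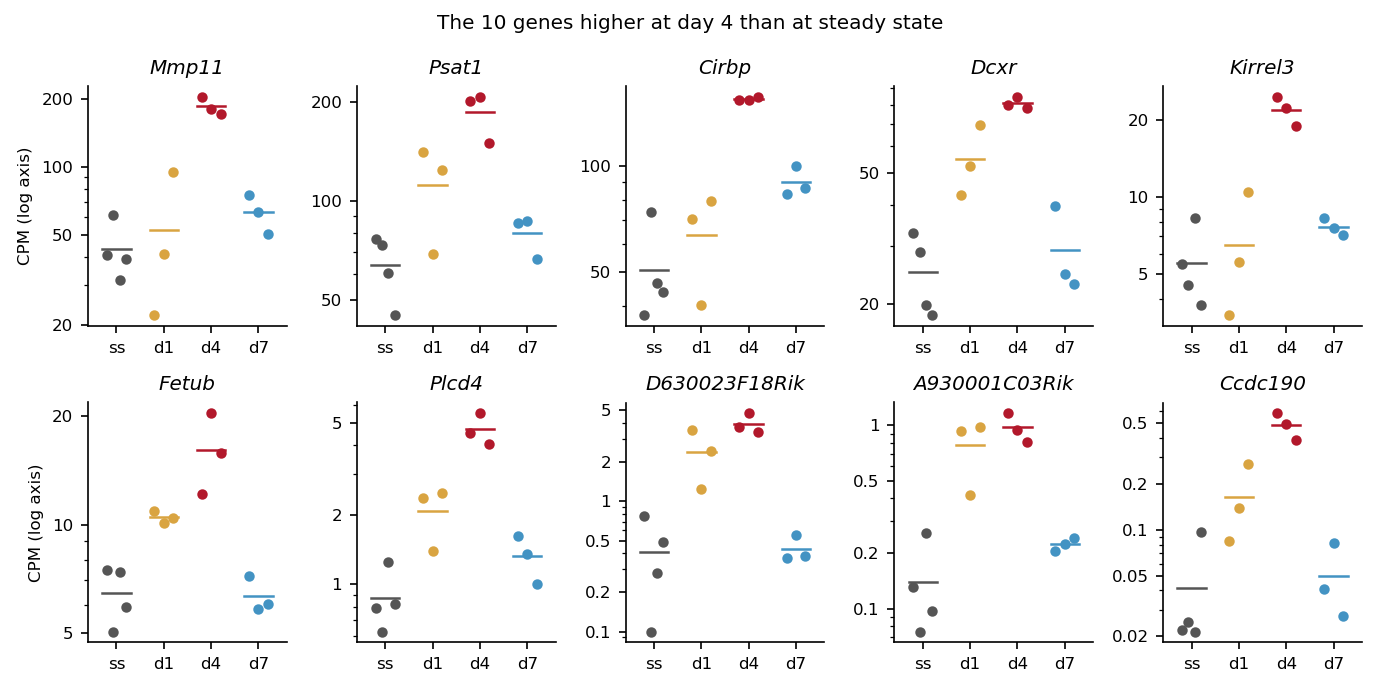
CPM of the 10 genes higher at day 4 than at steady state in each of the 13 libraries (points, log axes), with group means as bars, at steady state (ss, n = 4) and on days 1, 4 and 7 (d1, d4 and d7, n = 3 each). In every panel the day 4 points lie above the steady-state points, for Mmp11 at 172 to 205 CPM against 31.4 to 61.4 CPM.

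A chaperone fell too, as seen after the values were known. Hsph1, of the HSP110 family, had 169, 77.6, 78.5 and 108 CPM at steady state and 26.8, 29.4 and 34.5 CPM at day 4. All day 4 levels were below all controls (log2 fold change −1.84, SE 0.329, adjusted p = 0.0345), and without day 4 replicate 1 the gene did not pass (adjusted p = 0.127). The immediate early and heat shock list had a median of −0.64, with 11 of 13 genes negative, and none passed in edgeR. Of the 13, 4 lay below all controls, against 8.22% of all genes, and the chaperones Hspa8, Hspa1b and Hsp90aa1 were among these. Hspa8 had 576 to 1077 CPM and then 390 to 483 CPM (adjusted p = 0.174), Hspa1b had 78.4 to 310 CPM and then 32.2 to 49.3 CPM (adjusted p = 0.176), and Hsp90aa1 had 136 to 241 CPM and then 90.3 to 135 CPM (adjusted p = 0.352). DESeq2 called Hspa8 and Hspa1b lower (adjusted p = 0.0421 and 0.0137). Fos and Egr1, of the first response to stimulation and handling, overlapped, and Egr1 had 1802, 400 and 243 CPM in the day 4 libraries. The smaller falls included Ube2l6, Specc1, Dhrs11 and Isca1, a factor of iron-sulphur cluster assembly, by 1.67, 1.78, 1.34 and 0.92 on the log2 scale.

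No gene of the lists of stromal cell types passed in edgeR. The TEC list summed to 2659, 901, 1811 and 912 CPM at steady state and 3861, 4018 and 2940 CPM at day 4, so that every day 4 library was above every control. Its median log2 fold change was 0.37 (10 of 13 positive), and 1.29 and 0.22 within the tags. Krt5, a keratin of mTECs and TEC progenitors, had 524, 160, 338 and 170 CPM and then 1092, 1294 and 919 CPM (log2 fold change 1.89, SE 0.417, adjusted p = 0.0903). Krt18, a keratin of simple epithelia, had 678, 244, 454 and 256 CPM and then 1280, 1436 and 934 CPM (log2 fold change 1.58, SE 0.367, adjusted p = 0.112). These 2 of the 13 genes were the only ones above all controls, against 6.44% of all genes, and DESeq2 called both (adjusted p = 0.000764 and 0.00181). Together they make up most of each day 4 sum of the list. Epcam, the surface marker of TECs, overlapped, with 155, 33.4, 109 and 36.7 CPM and then 99.8, 24.4 and 25.5 CPM (log2 fold change −0.75, adjusted p = 0.656).

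All 10 cTEC genes had positive log2 fold changes (median 0.79, within the tags 2.00 and 0.67). Of the 10, only 1 was above all controls, against 6.44% of all genes. This was Slc46a2, a solute carrier of TECs, with 92.0, 29.8, 46.4 and 18.8 CPM and then 181, 182 and 140 CPM (log2 fold change 1.84, SE 0.513, adjusted p = 0.176), and DESeq2 called it (adjusted p = 0.0144). Foxn1, the master regulator of TECs, had 94.6, 12.6, 39.0 and 18 CPM and then 88.9, 91.8 and 56.9 CPM (log2 fold change 0.95, SE 0.604, adjusted p = 0.493), so that 1 control was as high as day 4. Psmb11 and Dll4 overlapped likewise. Psmb11, the thymic proteasome subunit, had 46.2 to 173 CPM and then 163 to 269 CPM (adjusted p = 0.593), and Dll4, the Notch ligand, had 39.9 to 75.7 CPM and then 46.6 to 85.3 CPM (adjusted p = 0.77). The cortical surface markers Ly75 and Enpep had 37.3 to 131 CPM and then 120 to 223 CPM (adjusted p = 0.404) and 79.3 to 122 CPM and then 79.5 to 123 CPM (adjusted p = 0.832). Prss16, the thymus-specific serine protease, rested on 1 library, with 1332, 386 and 230 CPM at day 4 against 216 to 784 CPM at steady state. Its log2 fold change was 0.46 with replicate 1 and −0.48 without it (adjusted p = 0.863 and 0.854). The letters GACGC, the core of sites bound by FOXN1, were on either strand of 4 of 10 RefSeq windows of the list (40%) and of 27.2% of all windows.

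The mTEC list had a median of −0.36, with 2 of 11 genes positive, and medians of 0.34 and −1.34 within the tags, which differ in sign. Aire, the regulator of tissue antigens, had 59.0, 3.03, 16.2 and 6.78 CPM and then 3.87, 3.06 and 4.83 CPM (log2 fold change −2.44, SE 0.82, adjusted p = 0.257). The lowest control lay just below the day 4 range and the other 3 above it, and DESeq2 called the gene lower (adjusted p = 0.0458). Krt14, a keratin of mTECs, and the chemokine gene Ccl21a overlapped too (adjusted p = 0.82 and 0.702). The list of mimetic cells, TECs that take on programs of peripheral tissues, had a median of −0.11, and 1.31 and −0.88 within the tags, again of different sign. Its most abundant members Chga and Dclk1 did not pass (adjusted p = 0.371 and 0.442). Chga had 150, 176, 43.5 and 12.3 CPM and then 179, 132 and 595 CPM. Within each group this is the same order of libraries as for Pth, of the parathyroid. Which cells the Chga RNA came from was not tested.

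For fibroblast genes the controls spanned the day 4 levels. The FB list summed to 19085, 149038, 34891 and 88975 CPM at steady state and to 60100, 53185 and 46135 CPM at day 4, so that day 4 lay inside the range of the controls. Col3a1 had 6322 to 63872 CPM and then 16693 to 24490 CPM (adjusted p = 0.619), and Col1a2 had 2783 to 34525 CPM and then 8319 to 12103 CPM (adjusted p = 0.75). Pdgfra, a surface receptor of FBs, varied less, with 659 to 884 CPM and then 663 to 758 CPM (log2 fold change −0.049, SE 0.221, adjusted p = 0.932). The list's median was −0.48, and it was −1.58 and 0.75 within the tags, which differ in sign. The extracellular matrix list gave a median of −0.35, and −1.43 and 0.99 within the tags. Mmp3, a matrix metalloproteinase, was the only 1 of its 22 members without overlap, whereas 6.44% of all genes were above all controls. It had 44.3 to 146 CPM and then 241 to 268 CPM (log2 fold change 1.51, SE 0.394, adjusted p = 0.149), and DESeq2 called it (adjusted p = 0.00924). Of the 7 FB subset markers, 1 was above all controls and 1 below, against 6.44% and 8.22% of all genes. Their log2 fold changes ran from −0.85 to 1.39 (median −0.14), and none passed in edgeR. The most abundant of them, Gpx3 and Pi16, overlapped (adjusted p = 0.761 and 0.837).

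The EC list had a median of 0.29 (12 of 17 positive). Of the 17, Esam, Eng and Pecam1, genes of the endothelial surface, were above all controls, against 6.44% of all genes. Pecam1 had 222 to 308 CPM and then 320 to 391 CPM (log2 fold change 0.38, SE 0.254, adjusted p = 0.504), and Kdr, a VEGF receptor, had 173 to 438 CPM and then 194 to 349 CPM (adjusted p = 0.665). Plvap, of fenestrated vessels, had 348, 58.0 and 54.1 CPM at day 4 and so was high in replicate 1 alone. Of the 14 mural genes, 3 were above all controls and 1 below, against 6.44% and 8.22% of all genes. The list had a median of 0.12 (7 of 14 positive), and 0.031 and −0.25 within the tags. Kcnj8 and Abcc9, both parts of a potassium channel of pericytes, were among the 3. Kcnj8 had 37.7, 63.0, 28.9 and 37.3 CPM and then 100, 107 and 102 CPM (log2 fold change 1.31, SE 0.26, adjusted p = 0.0615), and Abcc9 had 149 to 200 CPM and then 255 to 270 CPM (log2 fold change 0.61, SE 0.188, adjusted p = 0.22). DESeq2 called both (adjusted p = 0.000387 and 0.0131). Pdgfrb and Acta2, of pericytes and smooth muscle, overlapped (adjusted p = 0.45 and 0.415), and Des, their intermediate filament, lay below all controls with 190 to 267 CPM and then 82.7 to 164 CPM (adjusted p = 0.26). The mesothelial list had a median of 0.34, and its member Upk3b had 213 to 1929 CPM and then 1066 to 1994 CPM. The Schwann cell list had a median of 0.55, and 3 of its 9 genes were above all controls, against 6.44% of all genes. Its most abundant member Scn7a, a sodium channel, was above all controls with 128 to 219 CPM and then 229 to 260 CPM (adjusted p = 0.348), and Sox10, the glial regulator, overlapped.

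**Figure D4:**
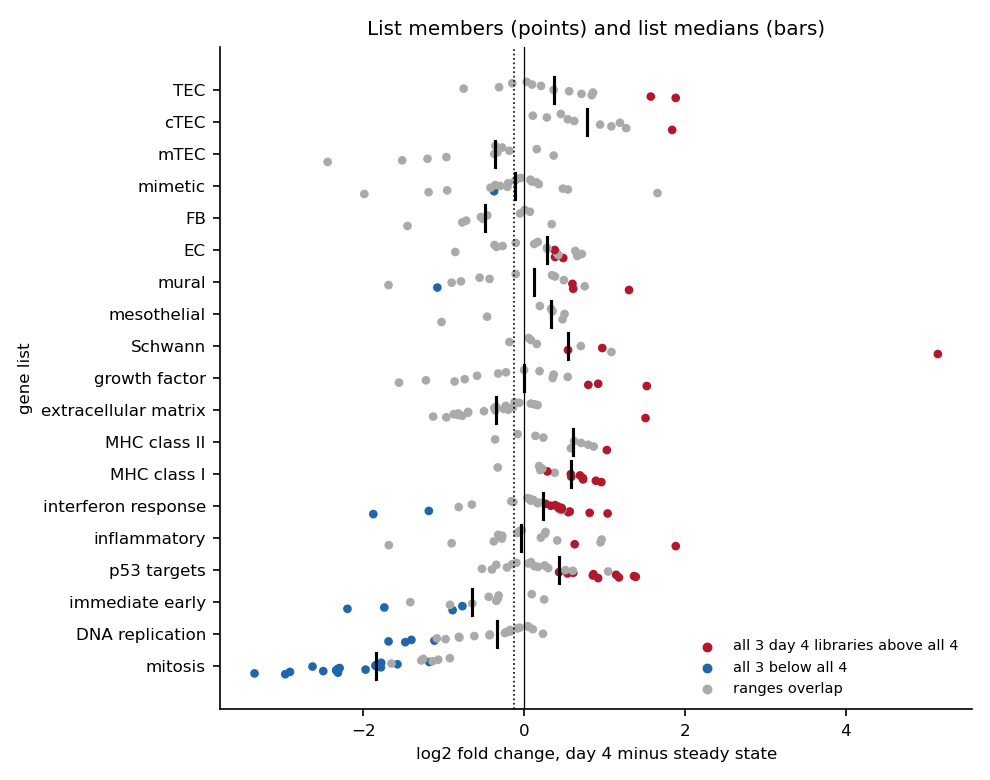
Log2 fold change of day 4 against steady state (horizontal axis) for each member (points) of 19 gene lists (vertical axis), with the list median as a bar and the median of all genes (−0.13) as a dotted line. Colours mark members with every day 4 library above, or below, every control. The mitosis list has its median at −1.84, and 10 p53 targets and 8 MHC class I genes lie above all controls.

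The p53 pathway switches on genes of arrest and repair after DNA damage. At day 4, 10 of 25 p53 targets were above all controls and 0 below, whereas 6.44% of all genes were above. The median was 0.44, 0.58 without day 4 replicate 1, and 0.36 and 0.54 within the tags. Cdkn1a, an inhibitor of cell cycle kinases, had 169, 258, 129 and 217 CPM and then 363, 574 and 582 CPM (log2 fold change 1.39, SE 0.31, adjusted p = 0.0914). Aen, a nuclease of apoptosis, had 31.7, 30.2, 27.5 and 30.7 CPM and then 51.0, 60.0 and 59.6 CPM (log2 fold change 0.92, SE 0.182, adjusted p = 0.06). Sesn2, a stress sensor, had 23.9 to 42.4 CPM and then 69.0 to 81.3 CPM (adjusted p = 0.0863), and Ccng1, the most abundant member, had 242 to 459 CPM and then 560 to 617 CPM (adjusted p = 0.256). None passed in the fit to all libraries. DESeq2 called 6 of the 25 (Aen, Bax, Cdkn1a, Eda2r, Psrc1 and Sesn2), and the fit to the 7 libraries alone called Aen and Sesn2. The shares of all genes called higher were 1.34% and 0.16%, in that order. Mdm2 and Fas overlapped (log2 fold changes 0.13 and 0.17), and Phlda3 was high in replicate 1 alone, with 283, 56.9 and 63.1 CPM at day 4.

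Of the 13 MHC class I genes, none passed in edgeR and 8 were above all controls, against 6.44% of all genes. Positive log2 fold changes were seen in 12 (median 0.58, within the tags 0.66 and 0.27). The list summed to 8622 to 10147 CPM at steady state and 14243 to 16138 CPM at day 4. H2-K1, a classical class I chain, had 2062, 1837, 1800 and 2089 CPM and then 3214, 3565 and 4071 CPM (log2 fold change 0.89, SE 0.242, adjusted p = 0.168). H2-D1, another such chain, and B2m, their common light chain, had log2 fold changes of 0.70 and 0.73 (adjusted p = 0.362 and 0.343). DESeq2 called H2-K1, the peptide transporter Tap1 and the proteasome subunit Psmb9. Of the 10 MHC class II genes, 8 had positive log2 fold changes (median 0.60, within the tags 1.61 and 0.096). None passed in edgeR and 1 was above all controls, against 6.44% of all genes. H2-Ab1 and Cd74 overlapped (adjusted p = 0.488 and 0.547).

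Of the 26 interferon response genes, 11 were above all controls and 2 below, against 6.44% and 8.22% of all genes (median 0.23), and none passed in edgeR. DESeq2 called Irf7 and Dhx58 higher and Rsad2 lower (adjusted p = 0.0421, 0.0445 and 0.00202). Irf7, a regulator of interferon production, had 131, 228, 109 and 101 CPM and then 293, 297 and 287 CPM (log2 fold change 1.04, SE 0.309, adjusted p = 0.206), and Oasl2, the most abundant member, had 233 to 244 CPM and then 276 to 301 CPM (adjusted p = 0.613). Rsad2, an antiviral enzyme, lay on the other side, with 249, 118, 237 and 161 CPM and then 50.1, 38.5 and 68.2 CPM (log2 fold change −1.87, SE 0.413, adjusted p = 0.0899). The inflammatory list had a median of −0.040, and Steap4 and Il33 led it (adjusted p = 0.383 and 0.708), while DESeq2 called Lcn2 higher (adjusted p = 0.0389).

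Of the 15 growth factors, none passed in edgeR and 3 were above all controls, against 6.44% of all genes. The median was 0.00, and 1.13 and 0.071 within the tags. Il7, which keeps early thymocytes alive, had 80.6, 23.8, 35.7 and 20.1 CPM and then 115, 138 and 93.7 CPM (log2 fold change 1.53, SE 0.445, adjusted p = 0.194). Cxcl12, which guides progenitors in the cortex, had 762, 678, 590 and 491 CPM and then 1259, 1171 and 862 CPM (log2 fold change 0.80, SE 0.254, adjusted p = 0.237). Fgf10, a mesenchymal factor for TECs, had 70.0, 23.7, 66.3 and 29.6 CPM and then 82.3, 106 and 81.6 CPM (log2 fold change 0.92, SE 0.333, adjusted p = 0.286). DESeq2 called Il7 and Cxcl12 (adjusted p = 0.0259 and 0.0328). The remaining 12 overlapped. Bmp4, an endothelial factor for TECs, had 19.1 to 62.5 CPM and then 36.7 to 46.2 CPM (log2 fold change 0.00, SE 0.358, adjusted p = 0.999). The progenitor factors Kitl and Flt3l had log2 fold changes of 0.19 and −0.74, the chemokines Ccl25, Ccl21a and Ccl19 0.54, 0.37 and −0.32, and Bmp7 −0.58. Of the fibroblast growth factors, Fgf7, Fgf1, Fgf2, Fgf18 and Fgf21 had log2 fold changes of 0.36, −0.22, −0.86, −1.22 and −1.55. In the list of other trophic factors the median was −0.78, none of 17 passed in edgeR, and Igf1 and Wnt5a led it (adjusted p = 0.993 and 0.479). DESeq2 called Inhba lower (adjusted p = 0.0324).

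**Figure D5:**
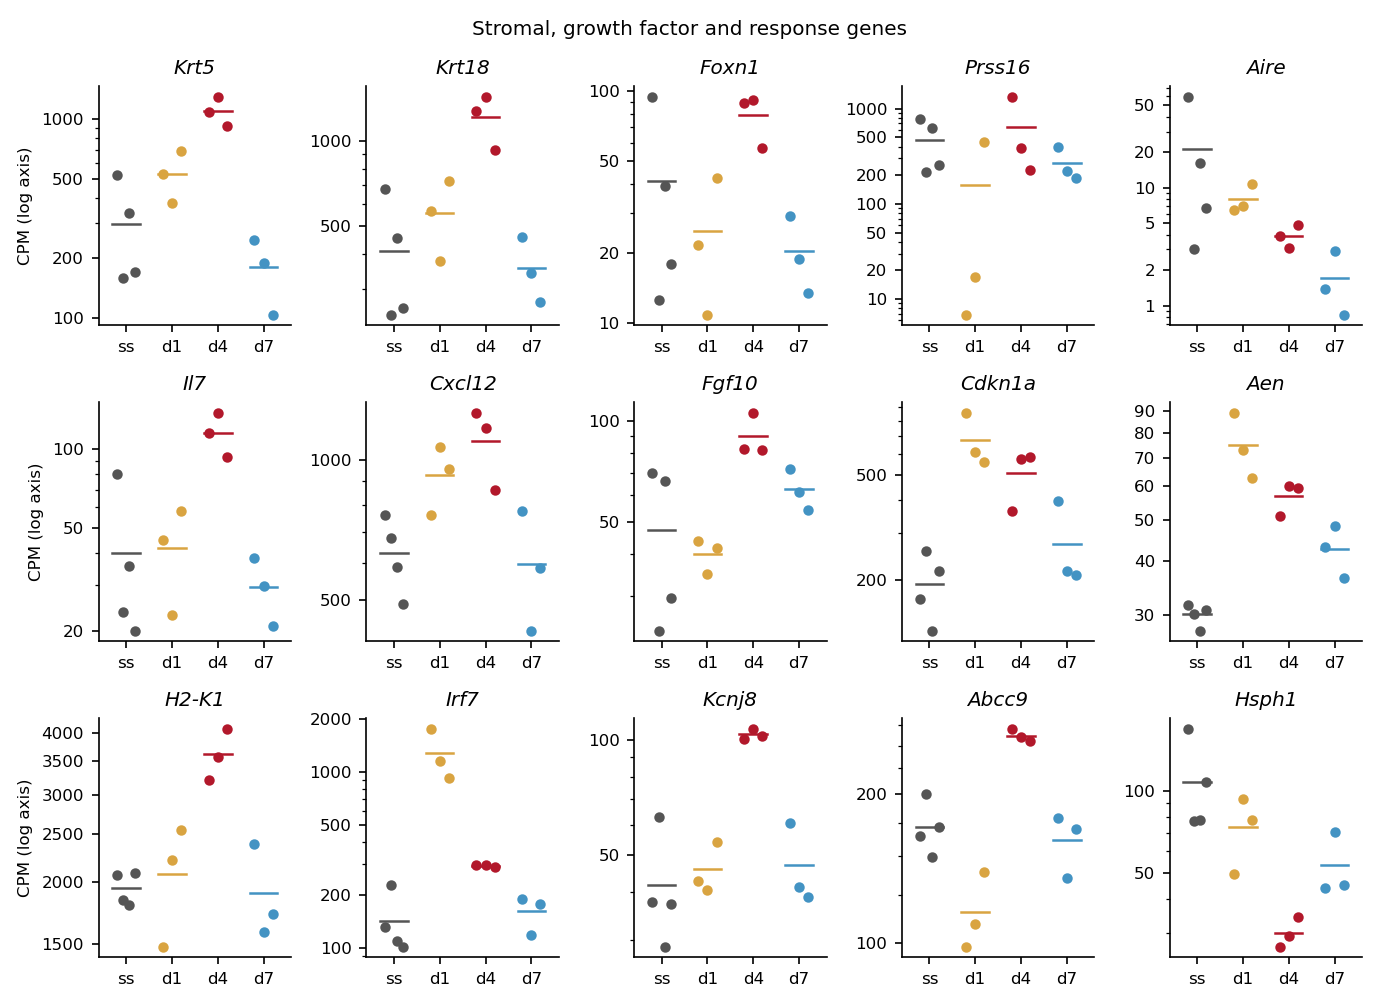
CPM of 15 genes of TECs, growth factors, response programs, mural cells and heat shock in each of the 13 libraries (points, log axes), with group means as bars, at steady state (ss, n = 4) and on days 1, 4 and 7 (d1, d4 and d7, n = 3 each). Krt5, Krt18, Il7, Cxcl12, Cdkn1a, Aen, H2-K1 and Kcnj8 have all day 4 points above the steady-state points, and the day 4 points of Prss16 lie at 1332, 386 and 230 CPM.

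The remaining lists had no member past the test in edgeR. Their medians were 0.29 for complement, led by C3 and Serping1 (adjusted p = 0.837 and 0.665), −0.57 for glucocorticoid targets, −0.17 for cholesterol synthesis, 0.080 for hypoxia and glycolysis, −0.32 for the unfolded protein response and 0.066 for oxidative stress. In the last list, 2 of 12 genes were above all controls and 2 below, against 6.44% and 8.22% of all genes. Nqo1, a quinone reductase, was above all controls with 58.0, 29.1, 34.8 and 20.4 CPM and then 121, 127 and 92.4 CPM (log2 fold change 1.67, SE 0.367, adjusted p = 0.0898). Cat, the catalase, which red cells also hold, was below all of them with 244, 228, 240 and 257 CPM and then 151, 159 and 157 CPM (log2 fold change −0.64, SE 0.172, adjusted p = 0.167). DESeq2 called Nqo1 higher and Cat lower (adjusted p = 0.000929 and 0.0173).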

How the data were processed

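Bulk RNA-seq of sorted CD45- thymic stroma was analysed from gene-level read counts as deposited, which the authors made with Trimmomatic 0.38, STAR 2.7.0e and featureCounts 1.6.3, per the labels' processing notes. A column of gene lengths was also deposited by the authors. Every column of counts was used. Counting was not stated to use strand, so that overlapping and antisense genes are uncertain. The control columns name days and replicates that fix the group but not the single sample, and although the study's methods define biological replicates as single mice, the labels do not tie these libraries to animals, so that p-values measure the spread between these samples.

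Genes were filtered by filterByExpr, scaled by TMM and tested with edgeR 4.0.16 (quasi-likelihood F-test, R 4.3.3) in 1 fit of all 13 libraries, which share the estimate of the spread, with Benjamini-Hochberg adjustment over 19984 genes. SE is the log2 fold change divided by the square root of F. DESeq2 1.42.0 was an alternative. The code was tested on simulated data. Alternatives changed the scaling, the filter, the libraries fitted and the covariates (replicate number, kind of column tag, and scores of erythroid and thymocyte RNA), thinned the counts to the smallest library, and left out each library in turn.

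The comparison, the gene lists and the rule for named genes were chosen with earlier results of these data known. The growth factor list holds factors that the study itself followed. Named by rule were, for each list, its called members (at most 6) or else its 2 most abundant members, then up to 10 rises and falls of largest size outside blood and neighbouring tissue averaging 5 CPM or more, without overlap of the groups, the growth factors with 6 cTEC genes, and the 4 most abundant erythroid and thymocyte genes. Other genes were named after their values were seen. Of the list entries, 1 was not matched, and some genes that the rule names are not reported here.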

Additional observations from a re-analysis of the deposited data

Results flagged for a closer look

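Among the 4 steady-state libraries, 7 of 158 levels tested had 1 library farther from the others than Dixon's 95% limit, while chance alone gives about 1 in 20. In PBS day 1, Egr1 was at 2250 CPM, Dusp1 at 657 CPM, Ccl21a at 184 CPM and the sum of the immediate early list at 11824 CPM. In PBS day 4, Cfd was at 613 CPM, Ldha at 905 CPM and the sum of the adipocyte list at 722 CPM. Groups of 3 libraries, such as day 4, were not tested in this way.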

How the results depend on the processing

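The 10 higher and 48 lower genes became 19 and 54 with RLE size factors, 47 and 203 without a filter, 3 and 17 with at least 10 counts in every library, 267 and 378 with DESeq2, and 30 and 116 with the 7 libraries alone. With the kind of column tag as covariate they were 3 and 30, and with a thymocyte score 34 and 21, where all 34 were in the erythroid or thymocyte list or followed thymocyte RNA, and none of the 10 passed. With an erythroid score or both scores edgeR called 0 and 0 (2343 and 1775, and 1792 and 1808, at an unadjusted p under 0.05). Neither the erythroid nor the thymocyte sums themselves overlap between the groups. Leaving out 1 library gave 0 to 23 higher and 19 to 74 lower, with the lowest counts without day 4 replicate 2 and the highest without PBS day 4, and over the day 4 libraries 0 to 5 and 19 to 29. Equal replicate numbers did not pair the samples (correlations of deviations −0.02 to 0.05), and the replicate block gave 1 higher and 26 lower.

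The erythroid median of −4.36 became −5.17 with at least 10 counts, −4.70 with the tag, −4.74 to −4.02 with 1 library left out (−4.74 to −4.31 for day 4 libraries), and −2.17, 0.20 and −0.66 with the thymocyte score, the erythroid score and both. In the same order of scores the thymocyte median became −0.29, 3.28 and −0.033, the FB median −1.81, −4.21 and −4.04, and the EC median 0.64, 1.05 and 1.2. The TEC median was 1.72 with the erythroid score and 1.97 with both, the p53 median 0.59 with the erythroid score, and the cTEC, mTEC and mural medians 1.93, 1.07 and 0.49 with both. The median of all genes then shifted to 0.35 with the erythroid score and 0.49 with both. Leaving out 1 library gave EC medians of 0.26 to 0.53 (0.27 to 0.53 for day 4 libraries) and mural medians of −0.093 to 0.49. Direction turned with the erythroid score for Apol11b (0.076), Car2 (0.23), Cd4 (1.41), Cd5 (1.91), Diaph3 (0.32) and, among the other lower genes, C230085N15Rik, Ccr9, Ctse, Epb41, Epb42, Kel and Specc1 (0.20 to 1.87), with both scores for Ctse, Epb42, Kel and Ube2l6 (0.01 to 1.85), and with the thymocyte score for Laptm5 (2.16). The cause was not tested. Scaling on genes outside erythroid and thymocyte RNA (10 and 47) and thinning to the smallest library (10 and 45) moved neither count by over 1.5 times.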
